A study of Macaca mulatta and Mus musculus with 5 samples.

Results

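In the mouse meninges table, 231 of 13933 barcodes with 300 or more detected genes (1.66%, exact binomial 95% interval 1.45 to 1.88) carried the RNA pair that marks natural killer cells. They were chosen by raw molecule counts: at least 1 unique molecular identifier (UMI, 1 counted mRNA molecule) of Ncr1, the gene of the activating receptor NKp46, at least 1 UMI of Klrb1c, the gene of NK1.1, no UMI of the T cell gene Cd3e, and at most 2 UMIs of the B cell gene Cd79a. These 4 genes set the membership, so their values describe the choice and are no finding. Ncr1 lies at chr7:4337724-4345164 (plus strand) and Klrb1c at chr6:128778485-128789215 (minus strand) of GRCm38, the assembly also called mm10. The cells are called Ncr1+Klrb1c+ cells here.

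The library is 10x 3'-end single-cell RNA sequencing of flow-sorted meningeal cells from male C57BL/6 mice aged 2, 21 and 48 days, labelled with hashtag antibodies, pooled and loaded at 30000 cells per channel. The labels do not say how many animals were pooled, no hashtag counts were used here, and all barcodes share 1 suffix, so ages and animals cannot be told apart. The other 4 libraries of the series are macaque meninges and spleen and enter no comparison. With 1 mouse library there is no replicate and no test: each value stands with an exact 95% interval, Poisson for summed UMIs and binomial for shares of cells, which covers counting error only.

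Natural killer (NK) cells are lymphocytes without a rearranged antigen receptor that kill infected or transformed cells with perforin and granzymes and weigh signals from activating and inhibitory receptors. Type 1 innate lymphoid cells (ILC1) share NKp46, NK1.1 and the factor T-bet with them, but stay in tissues, carry the integrin chain CD49a (Itga1) and develop without Eomes, the T-box factor that conventional NK cells need. The meninges are the membranes around the brain and spinal cord and hold resident as well as passing lymphocytes.

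The cells were deep: 3513 to 42407 UMIs with a median of 9621, a median of 2881 detected genes, and a median of 3.59% mitochondrial UMIs (highest 6.43%). Together they held 2584289 UMIs, and the median barcode of the whole library held 6309. Scrublet marked none of them as a doublet, against 175 barcodes in the library. The rule itself limits Cd3e and Cd79a, so this absence is not independent of the choice. Of the 13947 mouse barcodes, 16 to 28 also occurred in each macaque library, none of them among these cells. Levels are given as CPM, the summed UMIs of a gene scaled to 1000000 UMIs of the group, here and in 3 other groups of the same library. The first were 1399 Nkg7+ T cells (Cd3e and Nkg7 present, Ncr1 absent). The others were 355 Gata3+ innate lymphoid cells (Gata3 and Il7r present, Cd3e, Ncr1 and Klrb1c absent) and 9798 B-lineage cells (3 or more UMIs of Cd79a, Cd3e and Ncr1 absent). The T cells and Gata3+ innate lymphoid cells were also limited to at most 2 UMIs of Cd79a. Median UMI counts of the 3 groups were 8569, 8546 and 5772.5.

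Ptprc, the gene of CD45, was counted in 231 of 231 cells with a median of 12 UMIs, at 1236 CPM (1193 to 1280), although the label writes the sort with a dash after CD45. Itgam, the gene of CD11b, was counted in 10 cells. Among the markers named with the cell type, Styk1 was found in 130 cells (56.3%, 49.6 to 62.8), Klri2 in 79 (34.2%) and Gzma in 78 (33.8%, 27.7 to 40.3), and the choice used none of these 3. Each of these markers was thus counted in a part of the cells, and genes of ILC1 were present as well, as described below. The name natural killer cell fits the group only in part, and the rule alone does not separate NK cells from ILC1.

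Cells at the edges of the rule resembled the members to different degrees. The 30 members with a single Ncr1 UMI held Gzma in 36.7% of cells and the 25 with a single Klrb1c UMI in 28.0%. Just outside, 23 cells with Ncr1 but no Klrb1c held Gzma in 8.70% and Styk1 in 43.5%, and 40 cells with Klrb1c but no Ncr1 held Gzma in 22.5%. A further 52 cells had both genes together with Cd3e, and their Cd3d level was 540 CPM against 36.8 in the members. In 7 cells with both genes and 3 or more Cd79a UMIs, the B cell gene Cd79b reached 1082 CPM against 43.7 in the members.

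A gene is called higher or lower here when the levels differed at least 2-fold and the higher one was at least 20 CPM. Against Nkg7+ T cells, 237 of 6045 genes that reached the level were higher (3.92%) and 168 lower (2.78%), with a median log2 ratio of 0.10. Against Gata3+ innate lymphoid cells, 449 of 6248 were higher (7.19%) and 408 lower (6.53%, median 0.09). Against B-lineage cells, 935 of 6673 were higher (14.0%) and 949 lower (14.2%, median -0.13). The T cells are the nearest of the 3 by these counts, but this order is not independent of how the groups were chosen. Nkg7 was required in the T cells, and Ncr1 and Klrb1c were excluded from the Gata3+ innate lymphoid cells.

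Lectin-like and immunoglobulin-like NK receptors were higher for the most part. Of 22 listed receptor genes outside the rule, 18 reached the level against T cells, 12 were higher and 1 (Slamf6) lower, with a median log2 ratio of 1.66 beside 0.10 over all genes. Klrd1, which encodes CD94, the partner chain of the NKG2 receptors, stood at 954 CPM (917 to 992), against 255 in T cells, 11.4 in Gata3+ innate lymphoid cells and 5.79 in B-lineage cells. It was counted in 218 of the 231 cells with a median of 10 UMIs. Klrk1, the gene of the activating receptor NKG2D, was at 799 CPM (765 to 834) in 228 cells, against 224 in T cells, a ratio of 3.57 (3.38 to 3.78).

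The inhibitory NKG2A gene Klrc1 was at 332 CPM in 137 cells and was not counted in the Gata3+ innate lymphoid cells, at least a 387-fold difference taking 3 counts over that group as the floor. Klrc2, the gene of the activating NKG2C, was at 333 CPM and 2.67 times the T cell level (2.45 to 2.90). Its assignment and that of Klrc1 are uncertain, because 43.5% of the 50-base windows in the last 500 bases of Klrc1 transcripts and 15.2% of those of Klrc2 also occur in another gene. Klre1, a lectin-like receptor that pairs with Klri chains, was at 576 CPM, 5.60 times the T cell level (5.21 to 6.03).

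Other receptor genes were at least 10 times the T cell level. Klrb1b, the inhibitory NKR-P1B receptor, was at 363 CPM (340 to 387) against 5.95 in T cells and 50.6 in Gata3+ innate lymphoid cells, and the log2 ratio to the latter was 2.85 from summed UMIs and 3.68 with equal weight for each cell. In Klrb1b, 22.4% of the 3' windows occur in another gene, Klrb1a and the rule gene Klrb1c among them, so its level is uncertain and not fully separate from the choice of the cells. Klrb1f, an activating member of the same family, was at 202 CPM against 13.6 in T cells and 10.6 in Gata3+ innate lymphoid cells. Cd244, the gene of the SLAM family receptor 2B4, was at 135 CPM in 162 cells against 12.7 and 3.71. Klri2 was at 146 CPM (132 to 162) in 79 cells with up to 25 UMIs, against 4.44 in T cells and 0.207 in B-lineage cells. Slamf6 was the exception, at 22.4 CPM (17.0 to 29.0) against 63.0 in T cells. With cells limited to those without any Cd3d, Cd3e or Cd3g UMI, its log2 ratio went from -1.49 to -2.53.

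**Figure D1:**
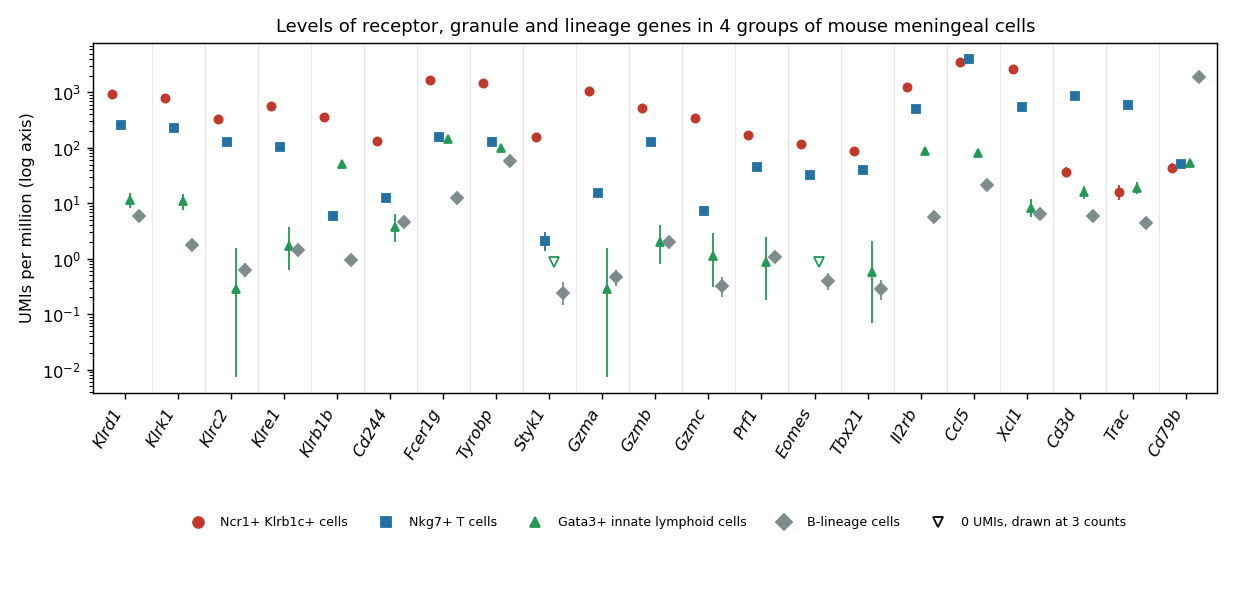
Levels in CPM (log axis) of 21 genes in the Ncr1+Klrb1c+ cells and in the 3 other groups of the mouse meninges library. Bars are exact 95% Poisson intervals for counting error only, and an open triangle marks 0 UMIs, drawn at 3 counts. Klrd1 stands at 954 in the Ncr1+Klrb1c+ cells and 255 in T cells, while Trac stands at 15.9 and 598.

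The signalling partners of these receptors differed as well. Of 18 listed adaptors and kinases, 17 reached the level against T cells, with 8 higher, 2 lower and a median log2 ratio of 0.39. Fcer1g, an adaptor with an activating motif that serves NKp46 and CD16, was counted in all 231 cells with a median of 17 UMIs, at 1660 CPM (1611 to 1711) against 160 in T cells. Tyrobp, the gene of the adaptor DAP12, was at 1450 CPM (1404 to 1497) against 127 in T cells and 58.8 in B-lineage cells. Its log2 ratio to T cells was 3.51 from summed UMIs and 4.24 when each cell counted equally.

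Hcst, the gene of the NKG2D adaptor DAP10, was at 605 CPM against 736 in T cells and was called in neither direction. Cd247, which encodes the zeta chain of the T cell receptor complex, was at 45.7 CPM against 131. The kinase gene Txk was at 497 CPM against 244, and Syk, the kinase that Fcer1g and Tyrobp recruit, was at 64.6 against 17.7. Styk1, which encodes a receptor-like kinase found in NK cells, was at 157 CPM (143 to 174) against 2.08 in T cells. It was not counted in the Gata3+ innate lymphoid cells, where the floor of 3 counts puts the difference at 184-fold or more.

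Cytotoxic genes were unevenly spread over the cells. Of 19 listed granule and death ligand genes outside the rules, 16 reached the level against T cells, and 6 were higher, 1 (Gzmk) lower, with a median log2 ratio of 0.60. Gzma, the gene of the tryptase granzyme A, lies at chr13:113093825-113100981 of GRCm38. Its 2788 UMIs gave 1079 CPM (1039 to 1120) against 15.1 in T cells, a ratio of 71.4 (62.0 to 82.5). Equal weight for each cell brought the log2 ratio from 6.16 to 5.57. Those UMIs came from 78 cells, of which 52 held 10 or more and 1 held 244, and the other cells held none.

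Gzmb, the gene of the caspase-activating granzyme B, was at 522 CPM (495 to 551) in 93 cells against 125 in T cells. Gzmc, the gene of granzyme C, was at 350 CPM (328 to 374) against 7.38 in T cells, but its 905 UMIs came from 43 cells and 5 cells gave 74.3% of them. The log2 ratio of Gzmc to T cells moved with the choice of cells: 5.57 by the rule, 4.38 with 2 or more Ncr1 UMIs, 6.20 without any Cd3d, Cd3e or Cd3g UMI and 7.24 without any Cd79a UMI. The level of Gzmc therefore rested on very few cells. For Gzmb the 5 leading cells gave 42.0% and for Gzma 31.0%.

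Prf1, which encodes the pore protein perforin, was found in 144 cells at 169 CPM against 45.7 in T cells, a ratio of 3.69 (3.26 to 4.18). Serpinb9, the intracellular inhibitor of granzyme B, was at 358 CPM against 81.4. The death ligand gene Fasl was at 99.4 CPM (87.7 to 112) against 104, so counting error alone covers that difference. Gzmk, the gene of granzyme K, was at 8.13 CPM in 7 cells against 40.3 in T cells, a log2 ratio of -2.31 that was -3.68 with Cd79a at 0 in both groups. In the B-lineage cells, which should lack these genes, Gzma stood at 0.462 CPM, Gzmb at 2.02 and Prf1 at 1.06. After thinning every cell to 2000 UMIs, 27.3% of the Ncr1+Klrb1c+ cells and 0.0821% of B-lineage cells held Gzma.

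**Figure D2:**
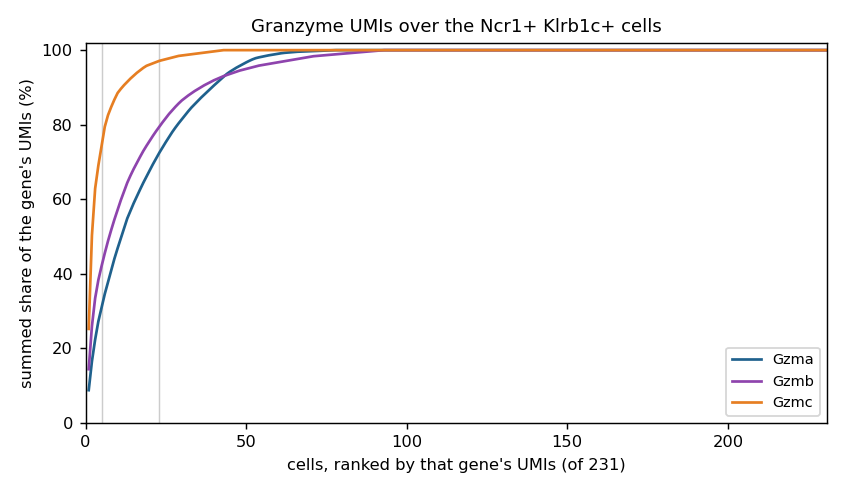
Cumulative percentage of the UMIs of Gzma, Gzmb and Gzmc (vertical axis) over the 231 Ncr1+Klrb1c+ cells ranked by their UMIs of that gene (horizontal axis), with lines at 5 and 23 cells. The leading 5 cells held 31.0% of Gzma, 42.0% of Gzmb and 74.3% of Gzmc UMIs, and the leading 23 cells held 72.5%, 79.5% and 97.1%.

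Chemokine and cytokine genes followed another pattern. Ccl5, the gene of the chemokine RANTES, was at 3562 CPM (3490 to 3635) in 209 cells, close to the 4032 of T cells and far from the 81.4 of Gata3+ innate lymphoid cells. Xcl1, the gene of a chemokine that attracts cross-presenting dendritic cells, was counted in 220 cells with a median of 21 UMIs, at 2651 CPM against 547 in T cells, a ratio of 4.85 (4.69 to 5.01). Ccl4 was at 917 CPM against 265, and its 2371 UMIs came from 142 cells of which 1 held 277. Ccl3 was at 270 CPM against 35.0 in T cells and was found in 80 cells, 60 of which (75%, 64.1 to 84.0) also held Ccl4, against 82 of the 151 without Ccl3 (54.3%, 46.0 to 62.4).

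Ifng, the gene of interferon gamma, was at 156 CPM (141 to 172) in 137 cells against 171 in T cells and 13.4 in Gata3+ innate lymphoid cells. Of the 12 listed cytokine and chemokine genes, 9 reached the level against T cells, where 3 were higher and none lower (median log2 ratio 0.60), and 11 against Gata3+ innate lymphoid cells, where 5 were higher and 3 lower (median 0.31). The 3 lower ones were Csf2, Lta and Areg, the last at 5.80 CPM against 369. Il1rl1 and Il22, which mark type 2 and type 3 innate lymphoid cells, had 3 and 5 UMIs in all 231 cells. Il13 had none, so these 3 marker genes were close to absent. Gata3, which helped to choose the comparison group, was not: it was counted in 137 of the 231 cells (59.3%) at 99.4 CPM.

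The transcription factors and receptors for growth and activating cytokines were as follows. Eomes (chr9:118478212-118486132) was at 120 CPM (107 to 134) in 77 cells with up to 16 UMIs, 3.66 times the T cell level (3.16 to 4.24), and was not counted in the Gata3+ innate lymphoid cells. Tbx21, the gene of T-bet, was at 86.3 CPM in 135 cells against 39.5 in T cells and 0.571 in Gata3+ innate lymphoid cells. Irf8 was at 234 CPM against 94.1, with a log2 ratio of 1.32 that became 2.10 with equal weight for each cell. Of 18 listed factors that reached the level against T cells, these 3 were higher and none was lower. Id2, the repressor of E proteins that innate lymphocytes require, was at 1134 CPM, against 791 in T cells and 1375 in Gata3+ innate lymphoid cells.

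Il2rb, the chain through which interleukin 15 signals, was counted in 230 cells with a median of 13 UMIs, at 1242 CPM against 511 in T cells and 88.3 in Gata3+ innate lymphoid cells. Il18rap was at 147 CPM against 47.7 in T cells and Il12rb2 at 37.9 against 18.3. These 2 encode parts of the receptors for interleukin 18 and interleukin 12, which drive interferon gamma in NK cells. Il7r was at 107 CPM in 80 cells. Among 23 homing and adhesion genes, 19 reached the level against T cells, with 4 higher, among them Ccr2 and Itga2, and 4 lower (Ccr7, S1pr1, Itga4 and Cd69). Their median log2 ratio was 0.07, beside 0.10 over all genes.

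Outside the lists, the 15 highest ratios to T cells at 100 CPM or more included 4 genes that are not receptors or granule genes. Vegfa, the gene of an angiogenic growth factor, was at 100.2 CPM in 64 cells against 3.08 in T cells, with 39.0% of its UMIs in 5 cells. Its log2 ratio of 5.02 was 4.43 with Cd79a at 0 in both groups. AC163354.1 was at 306 CPM (285 to 328) in 162 cells against 13.9. Cited4, a transcriptional coactivator gene, was at 122 CPM against 8.24, and Sulf2, which encodes a sulfatase acting on heparan sulfate, at 122 against 9.53. At the other end, Themis, a T cell receptor signalling gene, had 1 UMI in all the cells against 113 CPM in T cells. Against Gata3+ innate lymphoid cells the lower genes included Hs3st1 (1 UMI against 299 CPM) and Calca, the gene of the neuropeptide CGRP (8 UMIs against 573 CPM).

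T cell genes showed how far the absence of Cd3e reaches. Of 16 listed T cell genes outside the rule, 14 were lower than in T cells, 1 (Tcrg-C4) higher, and the median log2 ratio was -3.38. The T cells were chosen with Cd3e and the members without it, so this direction is not independent of the choice. Gata3+ innate lymphoid cells were also chosen without Cd3e. Against them 11 genes reached the level, 3 were higher (Cd3d, Trbc1 and Trdc) and 5 lower, with a median of -0.41. Trac, the constant region of the T cell receptor alpha chain, was at 15.9 CPM in 35 cells against 598, and Cd3d at 36.8 CPM in 36 cells against 878. Cd8b1 had 3 UMIs and Cd8a 5, and Cd4 and Cd5 had none. Trbc1, a constant region of the beta chain, was counted in 217 cells at 579 CPM (550 to 609) against 657 in T cells, 276 in Gata3+ innate lymphoid cells and 6.76 in B-lineage cells. In Trbc1, 39.5% of the windows of its last 500 bases occur in another gene, so reads of Trbc1 and Trbc2 may be split uncertainly.

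Cd3g, the gene of CD3 gamma, was counted in 76 cells (32.9%, 26.9 to 39.4) with up to 29 UMIs, at 131 CPM against 1062 in T cells, 101 in Gata3+ innate lymphoid cells and 7.33 in B-lineage cells. Of those 76 cells, 21 also held Cd3d (27.6%), against 15 of the other 155 (9.68%), and thinning to 3500 UMIs left 6.12% against 7.14%. Eomes was found in 31 of the 76 (40.8%, 29.6 to 52.7) and in 46 of the 155 (29.7%, 22.6 to 37.5), intervals that overlap. Requiring Cd3d, Cd3e and Cd3g to be 0 left 140 of the 231 cells.

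Genes of other cell types were mostly low in level. Even so, 228 of the 231 cells held a UMI of a listed B-lineage gene outside the rule. The 12 listed B-lineage genes outside the rule summed to 599 CPM, against 684 in T cells, 605 in Gata3+ innate lymphoid cells and 22500 in B-lineage cells, and per cell to 0 to 20.9 UMIs per 10000 with a median of 6.08. Ighm stood at 295, 274 and 253 CPM in the 3 non-B groups. All 3 were chosen with at most 2 UMIs of Cd79a, so their like level of B-lineage RNA is not independent of that choice. The 14 myeloid and granulocyte genes summed to 17.0 CPM against 312 in the T cell group, and the 10 stromal, vascular and erythroid genes to 92.5 against 1220. The T cell sums of these 2 lists rested partly on a few barcodes. With equal weight for each cell, the log2 ratio of Hbb-bs to T cells went from -4.84 to -3.10 and that of Mpo from -4.11 to -1.87, and Hbb-bs was counted in 28.1% of the Ncr1+Klrb1c+ and 24.4% of the T cells. The part of this RNA in the ratios to T cells was not tested.

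The members were next divided by Eomes and Itga1 (chr13:114953096-115101964). With all UMIs, 59 cells (25.5%, 20.05 to 31.7) held Eomes but not Itga1, 106 (45.9%, 39.3 to 52.5) held Itga1 but not Eomes, 18 (7.79%) held both and 48 (20.8%) neither. Itga1 was found in 18 of the 77 Eomes+ cells (23.4%, 14.5 to 34.4) and in 106 of the 154 without Eomes (68.8%, 60.9 to 76.0). After every cell was thinned to 2000 UMIs, the numbers were 36, 51, 4 and 140, since most cells then showed neither gene. Thinned to 3500 UMIs, which keeps every cell, they were 40, 80, 5 and 106, with Itga1 in 5 of 45 Eomes+ cells and 80 of 186 others.

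Between the 59 Eomes-only and 106 Itga1-only cells, 58 of 1688 genes at 100 CPM or more were at least 2-fold higher in the former (3.44%) and 104 lower (6.16%). The median UMI counts of the 2 classes were 10787 and 8832. Of 12 listed ILC1 genes, 8 reached that level, and all 8 were lower in the Eomes-only cells (median log2 ratio -2.85). Of 10 conventional NK genes, 6 reached it, with 4 higher and none lower (median 2.46). Itga1 and Eomes themselves, which made the classes, were left out of these counts. Because each class was made from detected genes of the same cells, the counts are descriptions.

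Cxcr6, the receptor gene tied to tissue retention of ILC1, was at 15.8 CPM (8.41 to 27) in Eomes-only and 431 (391 to 474) in Itga1-only cells, and was counted in 6.78% against 86.8% of cells. Over all 231 cells, Cxcr6 was found in 96 of the 124 Itga1+ cells (77.4%, 69.0 to 84.4) and in 31 of the 107 others (29.0%, 20.6 to 38.5). After thinning to 3500 UMIs the numbers were 55 of 85 (64.7%) and 40 of 146 (27.4%), so the difference was also seen at equal depth.

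Inpp4b, a phosphoinositide phosphatase gene of the ILC1 list, was at 9.72 CPM in Eomes-only and 379 in Itga1-only cells. Tmem176b was at 52.2 against 398 CPM and Cd200r1, an inhibitory receptor gene, at 4.86 against 93.0. Tnfsf10, the gene of the death ligand TRAIL, was at 19.4 CPM (11.1 to 31.6) against 132 (110 to 157). On the Eomes side, Sh2d1a, the adaptor of the SLAM receptors, was at 226 CPM against 7.001, Itga2, the gene of CD49b, at 85.0 against 15, and Tcf7 at 176 against 47.0. The intervals of the 2 classes do not meet for any of these genes, but they cover counting error only and not the spread between cells. The 43 Tmem176b UMIs of the Eomes-only cells, for example, came from 6 cells.

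The granzymes fell on different sides. Gzma was at 2490 CPM (2384 to 2600) in Eomes-only cells, 81.4% of which held it, and at 347 (311 to 386) in Itga1-only cells, 10.4% of which did. The leading 5 cells gave 36.5% of the Eomes-only and 97.1% of the Itga1-only Gzma UMIs, so the latter level rested on very few cells. Gzmb went the other way in level with 170 against 1101 CPM, but was counted in 40.7% and 47.2% of cells, and 5 cells gave 51.5% of the Itga1-only UMIs. Gzmc had 3 UMIs in the Eomes-only and 862 in the Itga1-only cells, a level of 3.64 (0.752 to 10.6) against 862 CPM. Of the Itga1-only Gzmc UMIs, 78.0% came from 5 cells. Gzmc was found in 5.08% against 31.1% of cells, and 29 of the 43 Gzmc+ cells (67.4%, 51.5 to 80.9) also held Gzmb against 64 of the other 188 (34.0%). Prf1 was at 192 CPM (163 to 224) against 150 (127 to 176) and was called in neither direction. The chemokine genes Ccl4 (298 against 1489 CPM) and Xcl1 (1464 against 3329) were higher in the Itga1-only cells.

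Fcer1g, Tyrobp and Tbx21, shared by NK cells and ILC1, were called in neither direction: Fcer1g was at 1267 against 2084 CPM, Tyrobp at 1731 against 1244 and Tbx21 at 59.5 against 102. Styk1 was counted in both classes, at 82.6 CPM and in 47.5% of Eomes-only cells, and at 233 CPM and in 63.2% of Itga1-only cells. Of the T cell list, 4 genes reached the level and 3 were lower in Eomes-only cells. They were Cd3g (70.5 against 208 CPM, but in 40.7% against 30.2% of cells), Trbc2 (285 against 604) and Tcrg-C4 (9.72 against 145). Cell state genes moved with the classes too. Of the immediate early and heat shock list, 18 reached the level and 6 were lower in Eomes-only cells (Jun at 350 against 984 CPM) with 1 higher, Nr4a1. Fos stood at 415 against 426. Of the cell cycle list, 11 reached it, 6 were higher and 1 lower, with Mki67 at 179 against 71.0 CPM. The part of these genes in the other differences was not tested.

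**Figure D3:**
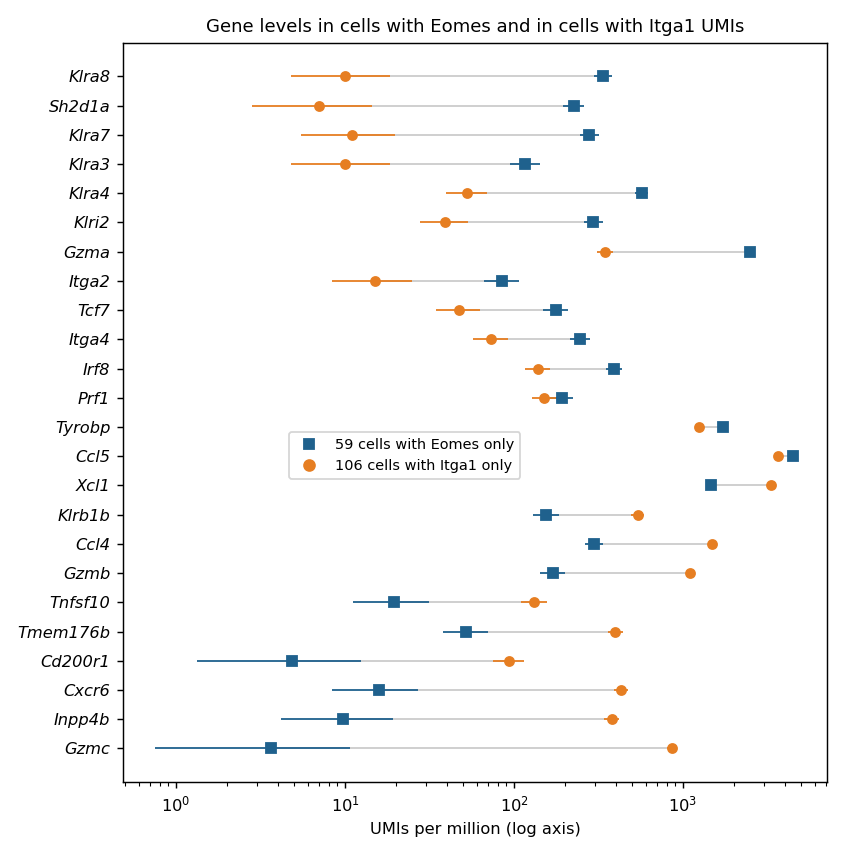
Levels in CPM (log axis) of 24 genes in the 59 Eomes-only and 106 Itga1-only cells, with exact 95% Poisson intervals for counting error. Gzma at 2490 against 347, Cxcr6 at 15.8 against 431 and Tmem176b at 52.2 against 398.

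The 48 cells with neither gene lay nearer to the Itga1-only cells by the ILC1 list and the 18 with both nearer to the Eomes-only cells. Summed per cell, the 11 ILC1 genes other than Itga1 had medians of 4.99 UMIs per 10000 in Eomes-only cells (0 to 66.8), 26.8 in Itga1-only cells (6.31 to 54.4), 7.42 in cells with both and 23.4 in cells with neither (1.27 to 72.8). The 9 conventional NK genes other than Eomes had medians of 23.4 (0 to 52.7), 3.14 (0 to 53.3), 18.3 and 1.76. The ranges of all 4 classes overlapped, so single cells could not be placed by these sums alone. Tmem176b reached 540 CPM in the cells with neither gene and 15.2 in those with both, and Rora reached 478 and 53.2.

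**Figure D4:**
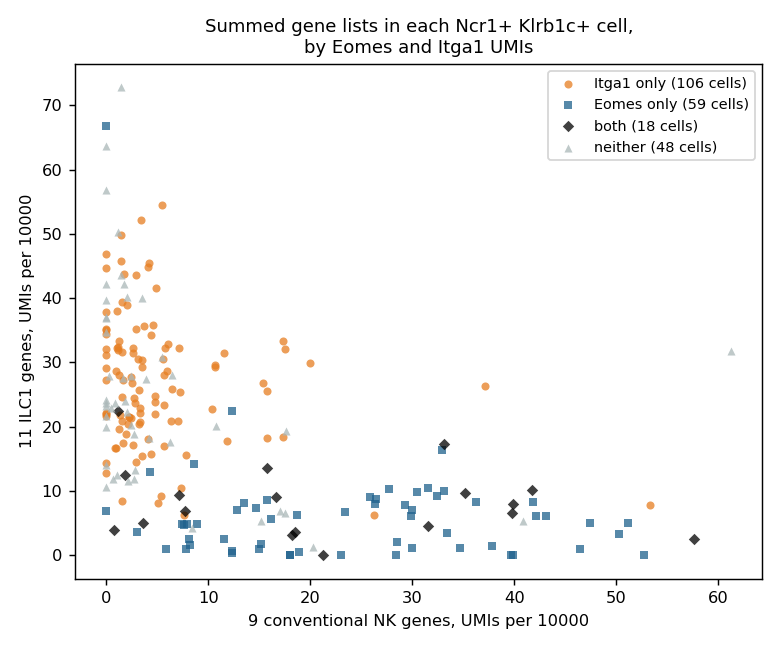
Each point is 1 of the 231 Ncr1+Klrb1c+ cells, with the summed UMIs per 10000 of 9 conventional NK genes (horizontal) and of 11 ILC1 genes (vertical), coloured by whether Eomes, Itga1, both or neither was counted. Eomes-only cells have medians of 23.4 and 4.99, Itga1-only cells 3.14 and 26.8.

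Ly49 receptors are lectin-like receptors for MHC class I that mouse NK cells carry in varied combinations. Inhibitory members hold an immunoreceptor tyrosine-based inhibitory motif (ITIM) near the start of the protein, while the activating members Ly49D (Klra4) and Ly49H (Klra8) lack it and signal through Tyrobp. The first 60 coding bases of 5 genes of the family, read from the GENCODE M21 transcripts of GRCm38, show this difference, with the codons of the ITIM in capitals where the search found it.
Klra3, chr6:130335740-130335799: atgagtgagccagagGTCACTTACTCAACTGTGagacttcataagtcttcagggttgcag
Klra7, chr6:130231558-130231617: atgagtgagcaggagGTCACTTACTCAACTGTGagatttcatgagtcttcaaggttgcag
Klra9, chr6:130191242-130191301: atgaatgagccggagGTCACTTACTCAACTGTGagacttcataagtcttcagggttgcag
Klra4, chr6:130065243-130065302: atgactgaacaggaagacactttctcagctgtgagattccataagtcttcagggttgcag
Klra8, chr6:130128101-130128160: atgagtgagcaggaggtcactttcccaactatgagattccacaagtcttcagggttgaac
All 5 lie on the minus strand and are written 5′ to 3′ in the sense of the gene. The motif was found within the first 60 codons of 7 of 9 Ly49 genes, from codon 6, and of 1617 of 21511 coding genes (7.52%), where a match is a description and not a working site.

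With all UMIs, 102 of the 231 cells (44.2%, 37.6 to 50.8) held at least 1 UMI of a Ly49 gene, and 79 (34.2%, 28.1 to 40.7) after thinning to 2000 UMIs. Klra9 was found in 58 cells, Klra7 in 44, Klra4 in 37, Klra8 in 34 and Klra3 in 23, while Klra1, Klra5, Klra6 and Klra10 were each in 9 or fewer and Klra2 and Klra17 in none. A total of 47 cells held 1 of these genes, 15 held 2, 20 held 3, 15 held 4, 4 held 5 and 1 held 6. These counts depend on depth: at 1000 UMIs per cell, 47 cells held 1 of the genes, 15 held 2 and 8 held 3. Some 3' windows are shared between these genes, as given below, and the part of that in the counts was not tested. Of the 11 measured genes, 7 reached the level against T cells, with 4 higher, 2 (Klra1 and Klra6) lower and a median log2 ratio of 2.34.

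Klra4 was at 244.9 CPM against 2 UMIs in all T cells, and its 633 UMIs came from 37 cells of which 27 held 10 or more and 1 held 57. Klra8 was at 171 CPM against 0.358 in T cells. With Cd79a at 0 in all cells compared, its log2 ratio was 7.89 in place of 8.90. Of the 37 Klra4+ cells, 18 also held Klra8 (48.6%, 31.9 to 65.6), against 16 of the other 194 (8.25%, 4.79 to 13.0). Thinned to 3500 UMIs, the shares were 14 of 36 (38.9%) and 16 of 195 (8.21%), so the pair went together at equal depth as well. With all UMIs, Eomes was counted in 34 of the 37 Klra4+ cells and 43 of the other 194, and its part in this pairing was not tested.

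Klra7 was at 147 CPM against 83.5 in T cells and was not called, while Klra9 was at 144 against 20.2. The split of reads between Klra9, Klra3 and their neighbours is uncertain, since 49.4% and 31.5% of their 3' windows occur in another gene or pseudogene of the cluster. The shares were 13.1% for Klra8 and 4.66% for Klra4. Klra9 and Klra7 occurred together in 24 cells, which is 41.4% (28.6 to 55.1) of the Klra9+ cells, against Klra7 in 20 of the 173 others (11.6%).

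With all UMIs, the 4 most frequent Ly49 genes differed in how often they occurred with Eomes. Eomes was found in 34 of 37 Klra4+ cells (91.9%, 78.1 to 98.3), 28 of 34 Klra8+ cells (82.4%, 65.5 to 93.2) and 35 of 44 Klra7+ cells (79.5%, 64.7 to 90.2), and in 29 of 58 Klra9+ cells (50%, 36.6 to 63.4) against 48 of the 173 without Klra9 (27.7%, 21.2 to 35.1). Thinned to 3500 UMIs, Eomes was in 19 of 36 Klra4+ (52.8%), 17 of 30 Klra8+ (56.7%), 15 of 32 Klra7+ (46.9%) and 13 of 44 Klra9+ cells (29.5%). In the cells without that gene, the shares were 13.3%, 13.9%, 15.1% and 17.1% in the same order. The intervals of the 4 thinned shares with the gene overlapped, among them 37.4 to 74.5 for Klra8 and 16.8 to 45.2 for Klra9. The difference between the 4 genes was thus not resolved at equal depth. Between Eomes-only and Itga1-only cells, Klra8 was at 338 against 10.0 CPM, the latter from 1 cell, Klra7 at 279 against 11 and Klra4 at 569.7 against 53.0. Klra9 was at 152 CPM (126 to 181) against 147 (124 to 173), a ratio of 1.03 (0.807 to 1.32), and was counted in 32.2% against 18.9% of cells. Klra5, found in 8 cells, was in 1 Eomes-only, 3 Itga1-only, 2 cells with both and 2 with neither.

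Comparing the 102 Ly49+ cells with the 129 others over 1599 genes at 100 CPM or more, leaving out the Ly49 genes, 17 were at least 2-fold higher (1.06%) and 26 lower (1.63%). Among the 5 largest ratios were those of Eomes (204 against 45.7 CPM), Klri2 (248 against 57.3), Sh2d1a (167 against 46.4) and Gzma (1724 against 514). Of the ILC1 list, 8 genes reached the level and 4 were lower (Cxcr6, Il7r, Tmem176a and Tmem176b). The largest ratios in the other direction were those of Hspa1b, Krt83, Hist1h1b, Hist1h2ap and Ckb, with Krt83 at 18.2 against 133 CPM. The heat shock gene Hspa1b was at 11.6 against 107 CPM, and its part in the other differences was not tested.

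**Figure D5:**
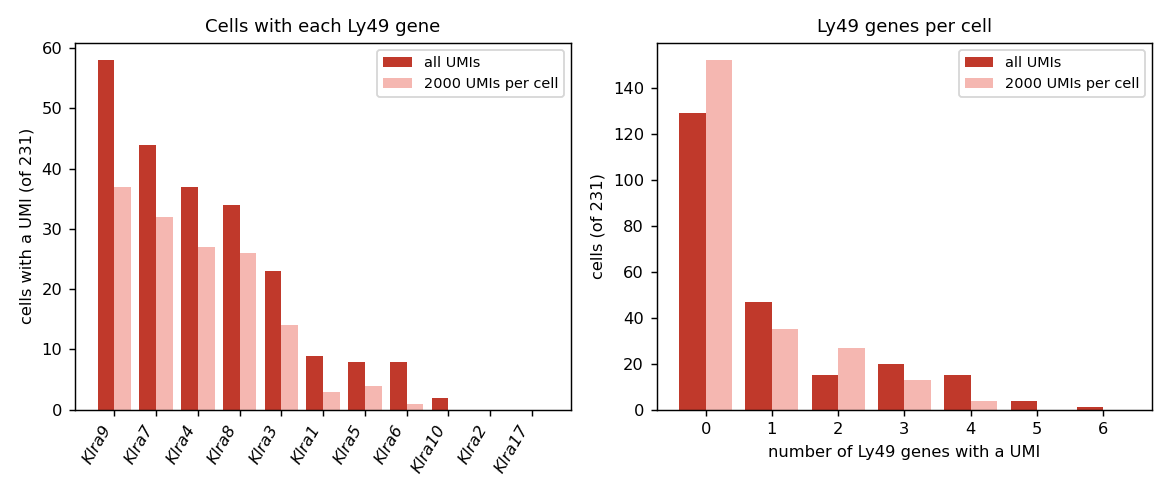
Number of the 231 Ncr1+Klrb1c+ cells with at least 1 UMI of each Ly49 gene (left) and by how many Ly49 genes a cell held (right), with all UMIs and after thinning to 2000 UMIs per cell. Klra9 is found in 58 cells and Klra4 in 37 with all UMIs, and 129 cells hold none of the genes.

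Maturing NK cells are usually staged from CD27+ to CD11b+ cells. Cd27 was found in 132 cells, 127 without Itgam, and Itgam in 10. Thinned to 2000 UMIs, 47 cells (20.3%, 15.3 to 26.1) held only Cd27, 2 only Itgam, none both (an upper limit of 1.58%) and 182 neither. Since CD11b was part of the sort, the scarcity of Itgam cannot be told apart from the gate. Of 9 mature NK genes, 5 did not reach the level against T cells (Itgam, Klrg1, Cma1, S1pr5 and Cx3cr1), and Klrg1 had 2 UMIs in all. The other 4 reached it, with Ly6c2 lower and 3 called in neither direction (median log2 ratio -0.62). Of 9 immature NK genes, 8 outside the rules reached the level. Of these, 3 were higher (Kit, Xcl1 and Cd7), 1 lower (Thy1) and 4 between, with a median of -0.01. The 2 lists do not stage the cells.

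Few cells held RNA of both Mki67 and Top2a, which mark dividing cells: 4 (1.73%, 0.474 to 4.37) at 2000 UMIs per cell and 18 (7.79%, 4.68 to 12.0) with all UMIs. Those 18 were deeper, with a median of 28910 UMIs against 8907 in the 149 cells with neither gene. With all UMIs, they were 10 of the 59 Eomes-only cells (16.9%, 8.44 to 29.0) and 2 of the 106 Itga1-only cells (1.89%, 0.229 to 6.65). Besides cell cycle genes such as Birc5 (252 against 6.46 CPM) and Pclaf (624 against 17.2), they differed in genes with a lower level: Gzmc had no UMI against 686 in the 149 cells, Itga1 was at 14.8 against 192 CPM, Ccl4 at 102 against 1177 and Styk1 at 16.9 against 190. Gzmc, Ccl4 and Styk1 were also lower in the Eomes-only than in the Itga1-only cells, as given above. Depth, division and the Eomes and Itga1 classes go together in these cells, and their parts were not tested.

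Interferon-response genes were lower in sum than in T cells only. They reached 579 CPM, against 1416 in T cells, 367 in Gata3+ innate lymphoid cells and 460 in B-lineage cells. Of the 14 listed genes, 11 reached the level against T cells, 3 were lower (Ifit1, Ifit3 and Ifi27l2a) and none higher, with a median log2 ratio of -0.53, while against Gata3+ innate lymphoid cells 6 of 10 were higher and none lower (median 1.28). Against B-lineage cells, 9 of 10 were higher and 1 (Ifi27l2a) lower, with a median of 2.18. Ifi27l2a was at 24.0 CPM against 630 in T cells. Summed per cell, the 14 genes had a median of 3.06 UMIs per 10000 and a highest value of 116. A part of this RNA lay in few cells. Only 13 of the 231 cells held 3 or more of 5 interferon genes counted per cell, and they gave 76.8% of the UMIs of those 5 genes. Of the immediate early and heat shock genes, 21 of 21 reached the level. In T cells 20 of them stood within 2-fold and Atf3 was the exception, and against Gata3+ innate lymphoid cells 6 were lower, 3 higher (Dusp2, Nr4a2 and Hspa1b) and 12 between, with Fos at 472 against 1471 CPM and Jun at 773 against 1648.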

How the data were processed

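The deposited mouse table holds raw UMI counts for 31017 genes in each barcode. The submitters' processing notes name Cell Ranger, without a version, and the build mm10. Barcodes with 300 or more detected genes were kept, cells were chosen by raw UMIs, and the counts were summed over each group and scaled to 1000000 (CPM). No doublets were removed; Scrublet in scanpy 1.11.5 was run as an alternative. Shares of cells were computed with all UMIs and after each cell was thinned to 2000 UMIs, which left out 4, 3 and 55 of the T, Gata3+ innate lymphoid and B-lineage cells. Intervals are exact 95% Poisson, binomial or conditional ratio intervals (scipy 1.17.1). A 0 was set to 3 counts for a ratio. The steps were tested on simulated data.

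The genes named are those of 20 lists (276 of 279 listed genes have a row), the 15 largest ratios in each direction against T cells and against Gata3+ innate lymphoid cells at 100 CPM or more, the 30 highest levels, and the 5 largest ratios in each direction of each split; a few genes of these are not reported here. The cells, the lists and the rule were chosen with earlier results of these data known. The split by Eomes and Itga1 and those by Ly49 and cell cycle genes are described mostly with all UMIs, since 2000 UMIs per cell left few cells in a class. Sequences and positions come from GENCODE M21 (GRCm38). Protein sequences were not used here. The 4 macaque libraries were used only to count shared barcodes.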

Additional observations from a re-analysis of the deposited data

How the results depend on the processing

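The limits are those of 1 pooled library of unknown numbers of animals at 3 ages: no value has a replicate, intervals cover counting error only, and PCR and sorting are not in them. No paired analysis was possible because only 1 mouse library was used here. For the same reason no replicate was left out, and values per barcode suffix were not run, since there was 1 suffix. Thinning to 3500 UMIs was added after seeing the data.

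The number of Ncr1+Klrb1c+ cells, 231 by the rule, was 201 with 2 or more Ncr1 UMIs, 140 with Cd3d, Cd3e and Cd3g at 0 and 162 with Cd79a at 0. Ly49+ cells, 79 of 231 at 2000 UMIs, were 37 of 140 with Cd3d, Cd3e and Cd3g at 0 and 102 of 231 without thinning. At 1000 UMIs per cell, cells with only Cd27 fell from 47 to 25, cells with Eomes and Itga1 from 4 to 1 and genes found in at least 50% of cells from 36 to 16. Without thinning these were 127, 18 and 105, and the cells with Mki67 and Top2a went from 4 to 18. At 3500 UMIs, 67 cells held only Cd27 and 56 genes were found in that share of cells. Fewer UMIs per cell leave fewer genes detected by construction.

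A fold of 3 gave 117 higher and 105 lower genes against T cells, 237 and 246 against Gata3+ innate lymphoid cells, and 569 lower against B-lineage cells. Without a minimum level the counts were 992 and 903, 1101 and 1312, and 2646 and 1969. The log2 ratio of Cd3d to Gata3+ innate lymphoid cells turned from 1.23 to -2.94 with Cd3d, Cd3e and Cd3g at 0, as that choice forces. Of 509 ratios of listed or named genes to T cells or Gata3+ innate lymphoid cells, 53 moved by over 1.5 times with equal weight for each cell, 43 with the 3 Cd3 genes at 0, 9 with 2 or more Ncr1 UMIs, 1 with at most 10% mitochondrial UMIs and none with 500 detected genes or without Scrublet-marked cells. With Cd79a at 0, 44 of 507 did.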
